A study of Mus musculus with 18 samples.

Results

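Brain microglia at embryonic day 12.5 (E12.5) were described here from 718 single cells, out of 3012 cells in the series. They were the wells of the 4 libraries of E12.5 brain that held 1 sorted cell and at least 300 unique molecular identifiers (UMIs, each marking 1 captured transcript) on gene rows, and 42 of the 760 single-cell wells of these libraries fell below that limit. Transcriptomes were measured by MARS-seq, a plate-based method that counts the 3' ends of polyadenylated RNA from single cells. All mice were CX3CR1-GFP+ on the C57BL/6J strain, which means that the fractalkine receptor gene carries a green fluorescent protein reporter, and none was treated. The E12.5 brain cells were sorted as CD45+CD11B+CX3CR1-GFP+. They were compared with 671 cells from yolk sac at E12.5 (4 libraries, sorted with the same gate), 992 brain cells from embryonic day 18.5 (E18.5, 6 libraries) and 631 adult brain cells (4 libraries), both of the later ages sorted as CD45intCD11BintCX3CR1-GFP+. The later gate and the later age cannot be told apart, and the reporter gate also takes other CX3CR1-positive myeloid cells.

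The E12.5 brain libraries held 185, 187, 172 and 174 cells and 494319, 534219, 233389 and 228467 UMIs for replicates 1 to 4. Replicates 1 and 2 came from 1 plate and 1 sequencing batch, and replicates 3 and 4 from another plate and batch. The median cell held 1725 UMIs in E12.5 brain, 1511 in yolk sac, 983 in E18.5 brain and 521 in adult brain. Between the plates of E12.5 brain, 497 of 4883 tested genes differed (10.2% called, 303 lower and 194 higher in replicates 3 and 4), so counts or values between plates are given beside many of the results. No well identifier was shared between libraries. The well table lists a single subject number for each age, so p-values measure the spread between libraries, which may be technical. Because counts were summed per library, fewer cells with a transcript and less of it per cell cannot be told apart unless values per cell are given. Levels are in CPM, the UMIs of a gene per 1000000 UMIs of the library, as mean ± SD over libraries. Changes are log2 fold changes of E12.5 brain minus the other group with their standard error (SE) and the Benjamini-Hochberg adjusted p of edgeR's quasi-likelihood test over all tested genes, called below 0.05.

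Microglia are the resident macrophages of the brain. They descend from yolk sac precursors that enter the brain before the blood-brain barrier forms, multiply there, and take on their adult program of surface receptors, complement and lysosomal genes in steps. In the embryo they clear dying cells and touch growing neurons and vessels. The cells described here are the earliest brain stage of the series and the closest in time to the yolk sac origin.

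The cells carried transcripts of microglial identity, at a level between that of yolk sac and that of later brain. Summed over 20 genes of homeostatic microglia, such as the membrane protein gene Tmem119, the 4 libraries held 16800 to 17490 CPM. Yolk sac libraries summed to 5684 to 6853 CPM, those of E18.5 brain to 35330 to 39430 CPM and those of adult brain to 64870 to 69270 CPM, with no overlap between groups. Tmem119 averaged 749.7 ± 118 CPM in E12.5 brain, against 25 ± 8.25, 1569 ± 102 and 5745 ± 436 CPM in yolk sac, E18.5 brain and adult brain. All 19 tested genes of the list were higher than in yolk sac, and 17 of 19 were lower than in each later brain group. Over all tested genes 8.81% were higher than in yolk sac, and 11.1% and 17.8% lower than in E18.5 and adult brain. Between plates 6 of the 19 were called, 2 higher and 4 lower in replicates 3 and 4. The 10 measured markers of embryonic and border macrophages summed to 153 to 453 CPM in E12.5 brain and to 5037 to 8270 CPM in yolk sac. The genes behind the sort were present. Ptprc, which encodes CD45, had 322, 219, 94.3 and 114 CPM in replicates 1 to 4, Itgam, which encodes CD11b, had 558, 499.8, 266 and 206 CPM, and Cx3cr1 had 180.0, 238, 124 and 105 CPM. All 3 were lower in replicates 3 and 4, and Ptprc and Itgam passed the test between plates (adjusted p = 0.00258 and 0.00022, edgeR).

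Transcripts of other cell types were scarce. The 9 markers of neural progenitors summed to 24.3 to 48.2 CPM in E12.5 brain, with Fabp7, Slc1a3 and Msi1 at 0, against 0 in yolk sac, 5.31 to 23.0 CPM in E18.5 brain and 111 to 187 CPM in adult brain. In adult brain 7 of the 9, among them Sox2 and Pax6, were at 0, so its sum came from Slc1a3 and Hes5 alone. The 10 measured neuronal markers summed to 69.3 to 154 CPM in E12.5 brain, 0 to 14.5 CPM in yolk sac, 21.3 to 101 CPM in E18.5 brain and 0 to 31.2 CPM in adult brain. Among them Tubb3, a neuronal tubulin, had 14.2, 7.49, 51.4 and 43.8 CPM in E12.5 brain and 0 in every yolk sac library. Granulocyte precursor markers summed to 78.9 to 162 CPM, with Camp, S100a8, S100a9 and Ngp at 0, erythroid markers to 16.9 to 214 CPM, lymphoid markers to 90 to 138 CPM, monocyte markers to 8.09 to 26.2 CPM and endothelial and mural markers to 21.9 to 261 CPM. In the empty wells of these libraries the median was 43 UMIs and the highest value 80.

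Of 6 genes proposed as marks of this stage with earlier results of the series known, 2 were set apart from all other groups, 2 did not pass against yolk sac, and 2 differed between the plates of E12.5 brain. Nes encodes nestin, an intermediate filament protein best known from neural progenitors. It had 403, 487, 419.9 and 350.2 CPM in replicates 1 to 4 of E12.5 brain, against 25.9, 32.7, 80.9 and 66.7 CPM in yolk sac, 82.0 to 201 CPM in E18.5 brain with a median of 138 CPM, and 10.1, 11.0, 0 and 53.7 CPM in adult brain. Every E12.5 brain library lay above every other library. The log2 fold change was 2.95 against yolk sac (SE 0.30, adjusted p = 6.78e-10), 1.58 against E18.5 brain (SE 0.25, adjusted p = 6.74e-06) and 4.56 against adult brain (SE 0.46, adjusted p = 1.78e-10; edgeR for all 3). A Nes UMI was found in 316 of 718 E12.5 brain cells, 28.7% to 61.0% of cells per library, and in 36 of 671 yolk sac cells, 110 of 992 E18.5 brain cells and 6 of 631 adult brain cells. With every cell thinned to 300 UMIs these shares were 11.4% ± 2.70 in E12.5 brain, 1.19% ± 0.47 in yolk sac, 3.41% ± 0.87 in E18.5 brain and 0.50% ± 0.65 in adult brain.

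The level of Nes was as large without the cells that held neural transcripts. At least 1 UMI of the neural progenitor or neuron markers was found in 154 of the 718 cells, and at most 4 such UMIs in any cell. With these 154 cells left out, an alternative chosen after seeing the data, Nes averaged 426 ± 60.0 CPM in E12.5 brain, against 415 ± 56.3 CPM with all cells. Leaving out these cells does not remove background RNA from the remaining cells, and its part in the Nes level was not tested.

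Cryba4, a beta crystallin first known from the lens, had 615, 605, 741 and 819 CPM in E12.5 brain, against 174, 207, 220.0 and 122 CPM in yolk sac, 341 to 553 CPM in E18.5 brain with a median of 441 CPM, and 221, 209, 197 and 161 CPM in adult brain. Its libraries did not overlap with those of any other group, and the log2 fold changes were 1.90 (SE 0.20, adjusted p = 4.13e-10), 0.68 (SE 0.17, adjusted p = 0.00228) and 1.78 (SE 0.22, adjusted p = 1.19e-08) against yolk sac, E18.5 brain and adult brain by edgeR. The call against E18.5 brain was lost without the plate of replicates 3 and 4 (0.41, adjusted p = 0.197) and with batch as a covariate (0.75, adjusted p = 0.157; edgeR). Igf2bp1, an oncofetal RNA-binding protein, had 132, 157, 129 and 123 CPM in E12.5 brain, against 126, 192.3, 311 and 223 CPM in yolk sac, 0 to 17.2 CPM in E18.5 brain with a median of 2.30 CPM, and 0 in adult brain. Gsn, which encodes the actin-severing protein gelsolin, had 261, 215, 223 and 219 CPM in E12.5 brain, against 218, 254, 210.3 and 152 CPM in yolk sac, 13.9 to 40.1 CPM in E18.5 brain with a median of 20.9 CPM, and 0 in adult brain. Neither gene passed against yolk sac (log2 fold change −0.69, SE 0.28, adjusted p = 0.10 for Igf2bp1 and 0.10, SE 0.23, adjusted p = 0.853 for Gsn; edgeR). Both were higher than in E18.5 brain, by 4.47 (SE 0.45) and 3.27 (SE 0.28) on the log2 scale. Against the 0 counts of adult brain, taken at a floor of 3 counts over the group, Igf2bp1 was at least 16.7-fold higher and Gsn at least 28.0-fold higher in E12.5 brain.

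Spint1, an inhibitor of membrane serine proteases, had 204, 303, 116 and 109 CPM in E12.5 brain and only 2 UMIs in all yolk sac cells, a ratio of summed counts of 119 with an exact 95% interval of 32.6 to 986 that covers counting error only. It did not pass against E18.5 brain (183 ± 91.0 in E12.5 brain and 133 ± 20.6 CPM in E18.5 brain) or adult brain (137 ± 51.5 CPM). Klhl6, an adaptor of a ubiquitin ligase best known from B cells, had 360.1, 328, 141 and 109 CPM in E12.5 brain. It passed against yolk sac (97.1 ± 19.6 CPM, log2 fold change 1.26, SE 0.35, adjusted p = 0.0124, lost without E12.5 brain replicate 1 or yolk sac replicate 4 at 0.0563 and 0.0514) and adult brain (64.5 ± 47.2 CPM), and not against E18.5 brain (141 ± 55.5 CPM, adjusted p = 0.0772; edgeR). For both genes the level of replicates 3 and 4 was lower than that of replicates 1 and 2, by 1.06 and 1.34 on the log2 scale, and lay within the range of E18.5 brain. Within the batch shared with yolk sac Klhl6 differed by 0.30 on the log2 scale (adjusted p = 0.576, edgeR). With batch as a covariate no Klhl6 call held. By edgeR the values were 0.33 against yolk sac (adjusted p = 0.732) and 0.84 against adult brain (adjusted p = 0.353).

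**Figure D1:**
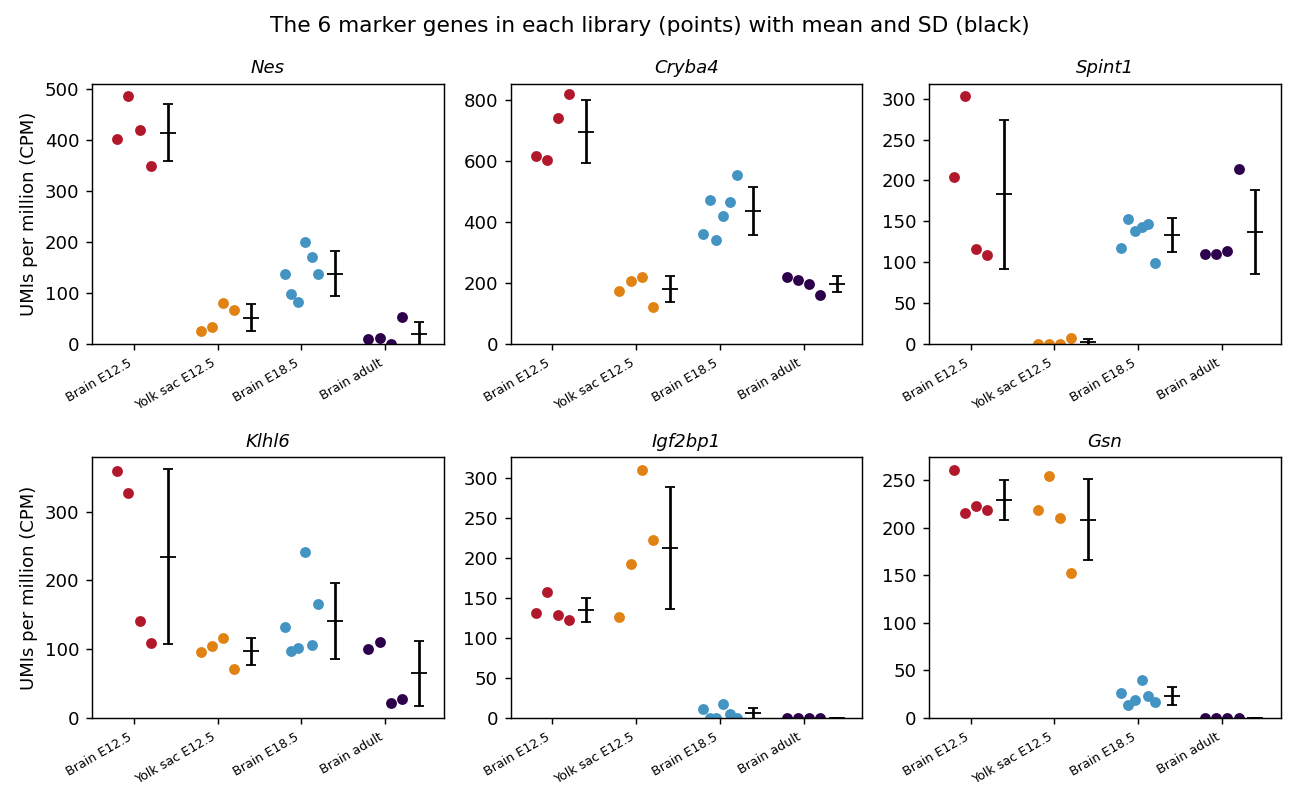
Level (CPM) of Nes, Cryba4, Spint1, Klhl6, Igf2bp1 and Gsn in each library (points) with mean and SD (black) for E12.5 brain, yolk sac, E18.5 brain and adult brain. The E12.5 brain points lie above all others for Nes and Cryba4, beside those of yolk sac for Igf2bp1 and Gsn, and in 2 pairs for Spint1 and Klhl6.

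The promoter windows of 5 genes on which these comparisons turn are given here because E12.5 brain differed from all or several other groups in these genes. Nes, Mtap1b and Cryba4 were set apart upward, Klhl6 passed against 2 groups, and Fos was set apart downward. With batch as a covariate no call of Mtap1b or Klhl6 held, and Cryba4 lost that against E18.5 brain. Each window holds 250 bases before and 50 bases after an annotated start and comes from RefSeq for build GRCm38.p6, which differs from the mm9 build of the counts. Nes lies on the plus strand at chr3:87970843-87971142, Mtap1b (Map1b in RefSeq) on the minus strand at chr13:99516553-99516852, Cryba4 on the minus strand at chr5:112252469-112252768, Klhl6 on the minus strand at chr16:19983000-19983299 and Fos on the plus strand at chr12:85473640-85473939. Capitals mark, on either strand, AGGAAGT (an ETS-type site as bound by the macrophage factor PU.1), TATAAA (the TATA box), GGGCGG (the GC box) and CCAAT.
Nes: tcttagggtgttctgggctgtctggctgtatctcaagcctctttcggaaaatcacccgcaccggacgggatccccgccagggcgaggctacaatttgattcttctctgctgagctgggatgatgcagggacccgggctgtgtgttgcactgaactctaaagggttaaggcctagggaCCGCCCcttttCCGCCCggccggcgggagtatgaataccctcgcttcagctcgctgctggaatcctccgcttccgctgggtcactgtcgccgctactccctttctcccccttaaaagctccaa
Mtap1b: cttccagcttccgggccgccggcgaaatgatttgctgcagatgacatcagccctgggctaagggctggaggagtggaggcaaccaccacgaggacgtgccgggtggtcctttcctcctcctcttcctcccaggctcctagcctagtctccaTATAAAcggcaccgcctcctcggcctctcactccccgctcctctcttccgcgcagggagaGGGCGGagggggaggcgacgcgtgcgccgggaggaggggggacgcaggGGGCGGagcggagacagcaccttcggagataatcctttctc
Cryba4: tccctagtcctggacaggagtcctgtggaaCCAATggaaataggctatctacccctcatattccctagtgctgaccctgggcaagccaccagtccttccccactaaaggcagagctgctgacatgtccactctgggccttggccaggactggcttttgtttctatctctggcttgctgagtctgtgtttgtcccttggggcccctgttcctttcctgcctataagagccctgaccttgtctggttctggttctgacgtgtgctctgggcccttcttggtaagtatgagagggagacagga
Klhl6: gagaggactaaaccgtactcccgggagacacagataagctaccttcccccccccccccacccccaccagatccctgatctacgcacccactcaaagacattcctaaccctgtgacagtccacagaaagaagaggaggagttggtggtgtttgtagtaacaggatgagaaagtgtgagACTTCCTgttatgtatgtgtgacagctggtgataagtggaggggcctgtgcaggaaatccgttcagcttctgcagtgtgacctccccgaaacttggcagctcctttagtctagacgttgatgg
Fos: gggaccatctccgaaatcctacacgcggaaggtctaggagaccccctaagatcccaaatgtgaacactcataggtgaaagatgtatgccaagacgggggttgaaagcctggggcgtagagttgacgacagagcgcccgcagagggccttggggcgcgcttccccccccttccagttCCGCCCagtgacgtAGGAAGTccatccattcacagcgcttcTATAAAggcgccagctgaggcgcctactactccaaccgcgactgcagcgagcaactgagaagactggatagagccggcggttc
The Nes window held 2 GC boxes, at 73 and 62 bases before the start, and none of the other motifs. Mtap1b held a TATA box 99 bases before the start and 2 GC boxes, and Cryba4 a single CCAAT box. The ETS-type letters were found in Klhl6, 73 bases before the start, and in Fos, 60 bases before the start. Over all 32851 windows of the same length the ETS-type letters were found in 9.35%, the TATA box in 13.6%, the GC box in 35.7% and the CCAAT box in 37.4%. Counted per gene, the ETS-type letters were in a window of 10.7% of all genes, of 4 of 32 genes set apart upward with a window and of 8 of 30 genes set apart downward. The GC box was in a window of 38.2% of all genes, of 26 of 32 set apart upward and of 20 of 30 set apart downward, the TATA box in 15.7%, 4 of 32 and 3 of 30, and the CCAAT box in 41.1%, 16 of 32 and 11 of 30. These matches are a description of letters and not of binding. The shares of all genes cover every annotated gene with a window, tested or not. Shares over the tested genes alone were not counted, so no enrichment can be read from these values.

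The most abundant transcripts were those of the cytoskeleton, of lipid and iron handling, of lysosomal proteases and of complement. Setting aside ribosomal, mitochondrial and hemoglobin rows, 20 genes held 12.6% to 14.3% of all UMIs of a library. Actb, beta actin, led with 27160, 26620, 25860 and 23280 CPM in replicates 1 to 4. Apoe, the lipid carrier apolipoprotein E, followed with 16160, 15650, 18900 and 17910 CPM. It ranked second in yolk sac and first in E18.5 brain, and 52nd in adult brain, where it had 520 to 2039 CPM. Its level in E12.5 brain did not pass against yolk sac (21880 ± 1381 CPM, adjusted p = 0.444) or E18.5 brain (19430 ± 2169 CPM, adjusted p = 0.675), and was higher than in adult brain by 3.72 on the log2 scale (SE 0.31, adjusted p = 1.42e-07; edgeR). Ftl1, the ferritin light chain, had 10650, 10200, 15240 and 15990 CPM and differed between plates by 0.69 on the log2 scale. Ferritin, actin and cofilin genes have near-identical copies, so that counts of Ftl1, Fth1, Actb and Cfl1 may include reads of others.

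Ctsd, Cst3, Lgmn and Csf1r were higher than in yolk sac and lower than in both later brain groups. Ctsd, the aspartic protease cathepsin D, averaged 8958 ± 1250 CPM in E12.5 brain, against 4149 ± 435, 12610 ± 939 and 16020 ± 760 CPM in yolk sac, E18.5 brain and adult brain. Cst3, the cysteine protease inhibitor cystatin C, averaged 8203 ± 939 CPM, against 5367 ± 148, 14270 ± 897 and 44610 ± 5772 CPM. Lgmn, the protease legumain, averaged 5272 ± 549 CPM, against 2137 ± 432, 8074 ± 887 and 8081 ± 348 CPM. The 3 chains of the complement starter C1q followed, with C1qb at 5792 ± 480, C1qc at 4551 ± 318 and C1qa at 4451 ± 839 CPM in E12.5 brain. Relative to yolk sac, C1qa was higher by 1.15 (SE 0.14) on the log2 scale. C1qc did not pass (0.23, adjusted p = 0.167, edgeR), though its E12.5 brain libraries all lay above those of yolk sac. C1qb was higher by 0.31 (SE 0.11, adjusted p = 0.0407), a call that was lost on leaving out any 1 library of the 18 (adjusted p = 0.0512 to 0.131; edgeR) and with batch as a covariate. All 3 chains were lower than in E18.5 brain, by 0.82, 0.77 and 0.95 on the log2 scale for C1qa, C1qb and C1qc, and lower than in adult brain. Csf1r, the receptor on whose signal microglia depend, averaged 4798 ± 311 CPM, against 3346 ± 456, 7967 ± 407 and 11290 ± 459 CPM. Csf1r was not called against yolk sac without the plate of replicates 3 and 4 (0.33, adjusted p = 0.0522, edgeR). Ctsd was not called against E18.5 brain without that of replicates 1 and 2 (−0.27, adjusted p = 0.059, edgeR). Between the plates C1qa, Ctsd, Cst3 and Lgmn were called higher in replicates 3 and 4, by 0.57, 0.45, 0.38 and 0.36 on the log2 scale.

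Other abundant genes were higher than at the later ages. Gpx1, a glutathione peroxidase, averaged 3376 ± 147 CPM, against 2778 ± 425 CPM in yolk sac, 1755 ± 148 CPM in E18.5 brain and 675 ± 199 CPM in adult brain, and ranked 15th in E12.5 brain but 138th in adult brain. Coro1a, an actin-binding coronin of leukocytes, averaged 3273 ± 463 CPM, against 2694 ± 272, 1561 ± 145 and 1710 ± 169 CPM. Gnas, the stimulatory G protein alpha subunit, and Cd52, a small surface glycoprotein of leukocytes, were the members of the 20 set apart upward from all 3 groups.

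In the test across genes, E12.5 brain was higher than yolk sac for 430 of 4883 genes (8.81%) and lower for 344 (7.04%). Against E18.5 brain 652 genes were higher (13.4%) and 543 lower (11.1%), and against adult brain 1013 were higher (20.7%) and 870 lower (17.8%). The 3 comparisons share the E12.5 brain libraries. Genes set apart, meaning called in the same direction against each of the 3 groups, numbered 45 upward (0.922%) and 38 downward (0.778%). Of these, 32 upward and 18 downward genes had no overlap of CPM between the 4 E12.5 brain libraries and the 14 others. Over all tested genes 62 lay wholly above (1.27%) and 25 wholly below (0.512%). At least a 2-fold difference in each comparison was reached by 11 of the upward and 25 of the downward genes. Without the plate of replicates 3 and 4 the counts were 22 upward and 32 downward, and without the plate of replicates 1 and 2 they were 60 and 47, both alternatives chosen after seeing the data. With the sequencing batch as a covariate 26 upward and 14 downward genes were set apart, of which 12 and 10 were among the 45 and 38. Replicates 3 and 4 of E12.5 brain shared a sequencing batch with replicates 1 and 2 of yolk sac, and within it the log2 fold changes were 3.68 for Nes, 2.01 for Cryba4, 2.39 for Tnni2, −3.62 for Fcgr2b and −2.10 for Sepp1. No batch held both E12.5 brain and a later brain group, so batch and age are told apart there only through the yolk sac libraries. With batch as a covariate Nes was 2.83 and 5.82, Tnni2 2.78 and 4.38, Fcgr2b −3.87 and −4.52, and Sepp1 −2.36 and −2.17 on the log2 scale against E18.5 and adult brain. Other genes named below lost calls with this covariate. Pmm1 and Glrx2 lost every call, and Rogdi those against E18.5 and adult brain. Ccdc23, Dctpp1, D10Wsu52e, Pdcl3, Dcakd and Arid4a lost the call against E18.5 brain. Klk8, Sdc4 and Ccl6 lost that against adult brain. Man1a and Il21r lost those against yolk sac and E18.5 brain, and Ier2 that against yolk sac.

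The genes set apart upward included several that are little known from macrophages. Cyp4f18, a cytochrome that inactivates leukotriene B4, had 115, 89.8, 107 and 149 CPM in E12.5 brain. Yolk sac libraries had 7.40, 14.5, 22.7 and 7.42 CPM, E18.5 brain libraries 0 to 28.7 CPM with a median of 6.63 CPM, and a single UMI was found in adult brain. No library of another group came near the lowest E12.5 brain value, and the log2 fold changes were 3.02 (SE 0.49, adjusted p = 7.86e-06) against yolk sac and 3.54 (SE 0.49, adjusted p = 6.02e-07) against E18.5 brain by edgeR. Tnni2, the inhibitory troponin subunit of fast skeletal muscle, had 265, 211, 304 and 319 CPM in E12.5 brain, against 55.5, 61.7, 45.3 and 89.0 CPM in yolk sac, 26.6 to 69.5 CPM in E18.5 brain with a median of 55.7 CPM, and 10.1, 11.0, 31.2 and 13.4 CPM in adult brain. No libraries overlapped with those of E12.5 brain. It was 2.08 (SE 0.27, adjusted p = 8.94e-08), 2.37 (SE 0.26, adjusted p = 2.98e-09) and 3.98 (SE 0.43, adjusted p = 5.44e-10) higher on the log2 scale by edgeR. Mtap1b, an older symbol of the microtubule-associated protein gene Map1b, had 66.8, 82.4, 77.1 and 56.9 CPM in E12.5 brain, against 0, 32.7, 0 and 0 CPM in yolk sac, 0 to 49.8 CPM in E18.5 brain with a median of 9.91 CPM, and 1 UMI in adult brain. No library of another group reached the E12.5 brain values of Mtap1b. The call against E18.5 brain was 1.81 on the log2 scale (SE 0.61, adjusted p = 0.0305, edgeR). It was lost without any of E12.5 brain replicates 1, 2 and 3 or E18.5 brain replicates 1, 2, 4 and 5. Leaving out adult brain replicate 3 also lost it (adjusted p = 0.0516 to 0.0805 over these, edgeR). No Mtap1b call held with batch as a covariate (edgeR). Without the 154 cells holding a neural transcript Mtap1b averaged 70.5 ± 18.0 CPM, against 70.8 ± 11.3 CPM with all cells, and the part of background RNA was not tested.

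Cd52 had 2634, 2544, 3274 and 2714 CPM in E12.5 brain, against 1180, 1383, 1427 and 1620 CPM in yolk sac, 777 to 940.3 CPM in E18.5 brain with a median of 891 CPM, and 352, 626, 488 and 322 CPM in adult brain. Its level stepped down across these groups, with log2 fold changes of 0.96 (SE 0.16), 1.68 (SE 0.14) and 2.62 (SE 0.18). Klk8, the serine protease neuropsin, had 129, 146, 154 and 219 CPM in E12.5 brain, against 59.2, 98.0, 29.1 and 55.6 CPM in yolk sac, 9.19 to 51.6 CPM in E18.5 brain with a median of 23.7 CPM, and 101, 44.0, 72.7 and 80.5 CPM in adult brain. Its lowest level lay at E18.5, with a log2 fold change of 2.53 (SE 0.35), against 1.37 (SE 0.33) and 1.07 (SE 0.39) relative to yolk sac and adult brain. The adult brain call was lost without the plate of replicates 3 and 4 (0.78, adjusted p = 0.165), and without E12.5 brain replicate 4 or adult brain replicates 2 or 3 (adjusted p = 0.0842, 0.0995 and 0.0602; edgeR). Dctpp1, which removes surplus deoxycytidine triphosphate, averaged 403 ± 88.2 CPM in E12.5 brain and 192.2 ± 29.6, 186 ± 39.7 and 97.0 ± 19.8 CPM in yolk sac, E18.5 brain and adult brain. Ccdc23, a small coiled-coil protein gene, averaged 273 ± 14.7 CPM, against 87.3 ± 16.4, 126 ± 17.5 and 81.5 ± 18.1 CPM. Other genes named upward by size included Pmm1, a phosphomannomutase, D10Wsu52e, Glrx2, a mitochondrial glutaredoxin, Pdcl3, Rogdi and Dcakd. Their smallest log2 fold change over the comparisons ran from 0.87 for Dcakd to 1.20 for Pmm1. No Pmm1 call held without E12.5 brain replicate 3 (adjusted p = 0.0578, 0.118 and 0.0903 against yolk sac, E18.5 brain and adult brain). The Glrx2 call against yolk sac (adjusted p = 0.0391) was lost without any 1 E12.5 brain replicate or without yolk sac replicates 2, 3 or 4 (adjusted p = 0.0549 to 0.148) and within the shared batch (0.90 on the log2 scale, adjusted p = 0.0882). Its call against adult brain was lost without E12.5 brain replicates 3 or 4 or adult brain replicates 1, 2 or 3 (adjusted p = 0.0536 to 0.13; edgeR). The Pmm1 call against E18.5 brain was also lost without E18.5 brain replicate 6 (adjusted p = 0.0547), and that against adult brain without adult brain replicates 1 or 4 (adjusted p = 0.0616 and 0.0729; edgeR). Dcakd was not called against yolk sac or E18.5 brain without the plate of replicates 3 and 4 (adjusted p = 0.052 and 0.066, edgeR). Between the plates of E12.5 brain, D10Wsu52e was lower in replicates 3 and 4 (240 and 241 CPM, against 453 and 401 CPM in replicates 1 and 2) and Dctpp1 was higher.

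Of the further genes set apart upward, 3 are named here after their values were seen. Myh9, the heavy chain of non-muscle myosin, had 926, 962, 728 and 731 CPM in E12.5 brain, against 308 to 395 CPM in yolk sac, 304 to 574 CPM in E18.5 brain with a median of 451 CPM, and 343 to 583 CPM in adult brain. Lsp1, an actin-binding protein of leukocytes, averaged 826 ± 57.8 CPM, against 514 ± 30.3, 338 ± 33.2 and 71.0 ± 26.6 CPM. Aif1, which encodes the microglial protein Iba1, averaged 1470 ± 235 CPM, against 925 ± 271, 1004 ± 108 and 1044 ± 90.3 CPM. Its log2 fold changes were all below 0.8. Of 20 tested actin regulators, 2 were higher than in yolk sac and 1 lower. Against E18.5 brain 13 were higher, and against adult brain 12 were higher and 1 lower. Over all tested genes 8.81%, 13.4% and 20.7% were higher in the 3 comparisons. The median log2 fold changes of the list were −0.02, 0.90 and 0.97, against 0.05, 0.03 and 0.07 over all genes. Cnn2, a calponin, averaged 542 ± 84.5 CPM in E12.5 brain, 547 ± 125 in yolk sac, 57.6 ± 23.2 in E18.5 brain and 71.7 ± 59.8 CPM in adult brain. Between plates, 5 of the 20 were called.

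**Figure D2:**
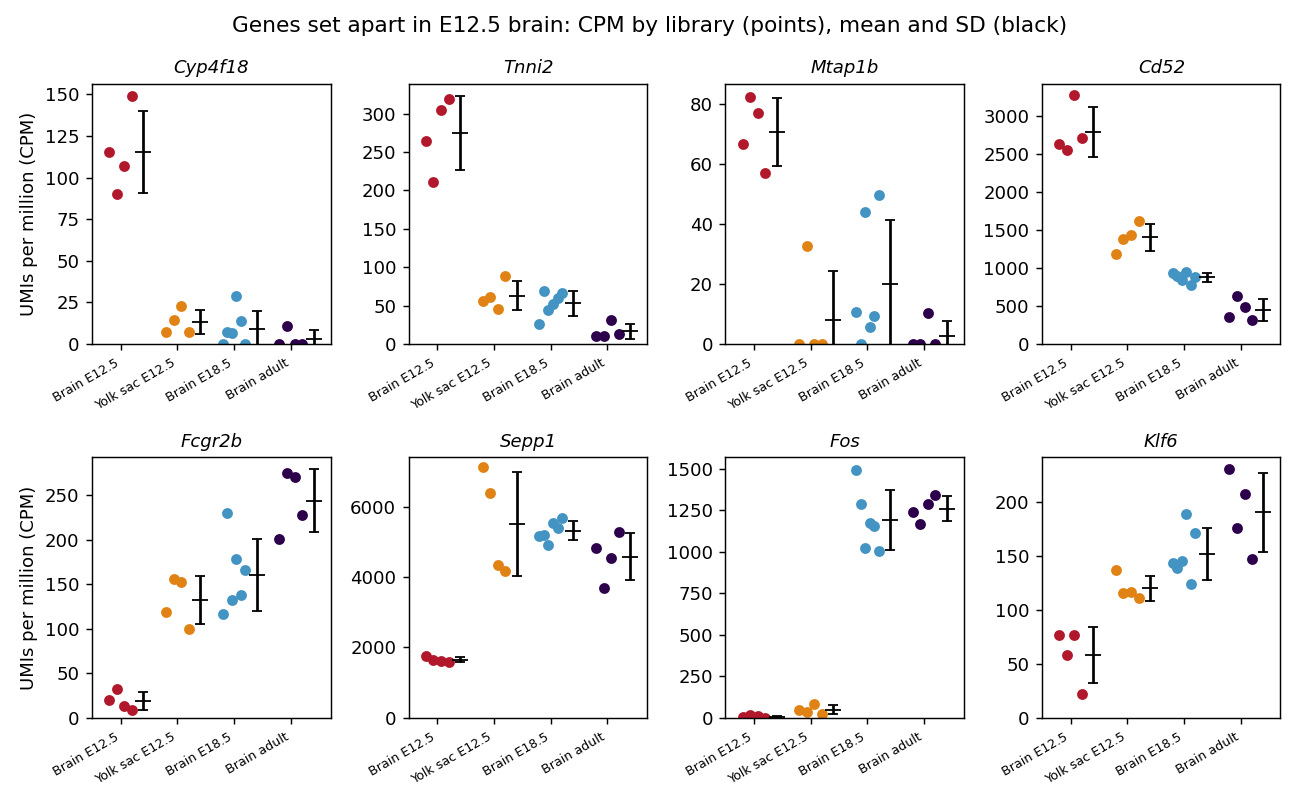
Level (CPM) of 4 genes set apart upward (Cyp4f18, Tnni2, Mtap1b, Cd52) and 4 set apart downward (Fcgr2b, Sepp1, Fos, Klf6) in each library (points) with mean and SD (black). In each panel the 4 E12.5 brain libraries lie wholly above or wholly below the libraries of yolk sac, E18.5 brain and adult brain.

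The genes set apart downward held receptors of innate immunity and immediate early genes. Fcgr2b, the inhibitory Fc receptor, had 20.2, 31.8, 12.9 and 8.75 CPM in E12.5 brain, against 118, 156, 152 and 100.1 CPM in yolk sac, 117 to 229 CPM in E18.5 brain with a median of 152 CPM, and 201, 275, 270.1 and 228 CPM in adult brain. The highest E12.5 brain library had less than the lowest of any other group. Its log2 fold changes were −2.70 (SE 0.31, adjusted p = 6.09e-09), −2.92 (SE 0.30, adjusted p = 7.06e-10) and −3.57 (SE 0.33, adjusted p = 7.53e-12) by edgeR. Sepp1, the selenium carrier selenoprotein P, had 1744, 1640, 1611 and 1580 CPM in E12.5 brain, against 7123, 6401, 4335 and 4168 CPM in yolk sac, 4922 to 5676 CPM in E18.5 brain and 4814, 3692, 4551 and 5271 CPM in adult brain. It was lower by 1.78, 1.69 and 1.5 on the log2 scale, and the E12.5 brain libraries were closer to each other than those of any other group. Cd14, the co-receptor for lipopolysaccharide, had 87.0, 88.0, 85.7 and 65.7 CPM in E12.5 brain, against 207, 185, 152 and 178 CPM in yolk sac, 149 to 443 CPM in E18.5 brain with a median of 232 CPM, and 593, 736, 1257 and 925 CPM in adult brain. Sdc4, the proteoglycan syndecan 4, averaged 21.9 ± 6.56 CPM in E12.5 brain, against 199.6 ± 74.8 CPM in yolk sac, 222 ± 48.0 CPM in E18.5 brain and 61.4 ± 20.6 CPM in adult brain.

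The cytokine receptor gene Il21r averaged 57.0 ± 14.2 CPM in E12.5 brain, against 142 ± 25.7, 113 ± 19 and 284 ± 83.7 CPM in yolk sac, E18.5 brain and adult brain. Man1a, a mannosidase of N-glycan trimming, averaged 26.0 ± 14.2 CPM, against 65.8 ± 17.0, 107 ± 41.0 and 161 ± 38.3 CPM. Ccl6, a CC chemokine, averaged 186 ± 22.1 CPM, against 366 ± 30.6, 520 ± 60.6 and 326 ± 86.2 CPM. Pttg1ip and Arid4a were the other genes named downward by size, at 78.8 ± 14.5 and 61.7 ± 14.4 CPM in E12.5 brain. Man1a was not called against yolk sac without yolk sac replicate 4 (−1.13, adjusted p = 0.0545), and Il21r was not called against E18.5 brain without the plate of replicates 1 and 2 (−0.74, adjusted p = 0.105; edgeR). The Arid4a call against E18.5 brain (−0.75, adjusted p = 0.0277) was lost without E12.5 brain replicates 3 or 4, E18.5 brain replicates 1 or 5 (adjusted p = 0.052 to 0.0673) or the plate of replicates 3 and 4 (adjusted p = 0.189), and the call against yolk sac was lost without that plate (adjusted p = 0.0654; edgeR). Within the shared batch Man1a was −1.44 against yolk sac (adjusted p = 0.0886, edgeR). Chosen after their values were seen, Pmp22, a tetraspan membrane protein, averaged 2.59 ± 3.08 CPM in E12.5 brain and 39.0 ± 16.6, 50.6 ± 24.8 and 559 ± 75.4 CPM in the other groups, and C5ar1, the receptor of complement fragment C5a, 15.3 ± 8.87 CPM, against 97.7 ± 16.1, 62.1 ± 23.6 and 43.0 ± 27.8 CPM.

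Immediate early genes, which are transcribed within minutes of a stimulus, were low. Fos had 2.02, 15.0, 8.57 and 0 CPM in E12.5 brain, against 48.1, 36.3, 84.1 and 22.3 CPM in yolk sac, 1007 to 1493 CPM in E18.5 brain with a median of 1164 CPM, and 1236, 1165, 1288 and 1341 CPM in adult brain. No library of another group overlapped with those of E12.5 brain. The change was far larger against the later brain groups, with log2 fold changes of −7.26 (SE 0.33) and −7.37 (SE 0.34), than against yolk sac (−2.70, SE 0.43, adjusted p = 1.61e-05, edgeR). Jun had 56.6, 65.5, 42.9 and 83.2 CPM in E12.5 brain, against 85.1, 72.6, 227 and 134 CPM in yolk sac, 669 to 1167 CPM in E18.5 brain with a median of 958 CPM, and 2493, 2505, 2037 and 3447 CPM in adult brain. Its highest E12.5 brain library lay within the yolk sac range, and it was called against all 3 groups (adjusted p = 0.0141 against yolk sac, edgeR). Its change against yolk sac was −0.34 within the shared sequencing batch (adjusted p = 0.631) and −0.31 with batch as a covariate (adjusted p = 0.785; edgeR), so this call was lost in both. Ier2 averaged 32.9 ± 12.9 CPM in E12.5 brain, against 76.6 ± 27.9, 229 ± 75.3 and 309.5 ± 87.0 CPM. Klf6, a zinc-finger transcription factor, had 76.9, 58.0, 77.1 and 21.9 CPM in E12.5 brain, against 111 to 137 CPM in yolk sac, 124 to 189 CPM in E18.5 brain and 148 to 231 CPM in adult brain. Its E12.5 brain libraries did not overlap with those of any other group. Of 13 tested members of the list, 11 were lower than in E18.5 brain and 11 lower than in adult brain, and 4 were lower than in yolk sac. Over all tested genes 11.1%, 17.8% and 7.04% were lower in these comparisons. Atf3 did not pass in any comparison (73.3 ± 26.1 CPM in E12.5 brain and 68.2 ± 27.9, 92.2 ± 37.9 and 60.1 ± 29.1 CPM in the other groups).

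Most respiratory chain genes were higher than at later ages, and few were called against yolk sac. Of 75 tested respiratory chain and ATP synthase genes, 50 were higher than in E18.5 brain and 59 higher than in adult brain. None was lower than in either group by edgeR, at an unadjusted p below 0.05 or by DESeq2. Over all tested genes 13.4% and 20.7% were higher in these comparisons. Against yolk sac 3 of the 75 were higher and 2 lower, while 8.81% and 7.04% of all tested genes were. Between plates 21 of the 75 differed, against 10.2% of all tested genes. Atp5a1 and Atp5f1, both ATP synthase subunits, and Cyc1, cytochrome c1, were the members set apart upward. Atp5a1 had 765, 837, 591 and 678 CPM in E12.5 brain, against 430.3 to 577 CPM in yolk sac, 396 to 624.9 CPM in E18.5 brain with a median of 478 CPM, and 275 to 376 CPM in adult brain. Its ranges overlapped with E18.5 brain only. Among 7 tested glycolysis genes, 3 were higher than in each of yolk sac and E18.5 brain and 5 higher than in adult brain, and 5 differed between plates. Aldoa, aldolase A, was set apart, at 1634 ± 298 CPM in E12.5 brain against 1084 ± 329, 899 ± 124 and 487 ± 52.1 CPM. Ldha, lactate dehydrogenase A, averaged 993 ± 56.9 CPM, against 755 ± 89.1, 585 ± 67.7 and 162 ± 41.7 CPM, and did not pass against yolk sac (adjusted p = 0.116, edgeR). Taldo1 and Tkt, both enzymes of the pentose phosphate pathway and named after their values were seen, were set apart upward with 985 ± 109 and 565 ± 173 CPM in E12.5 brain, against 628 ± 87.8 and 367 ± 75.7 CPM in yolk sac, and Tkt also differed between plates. Ribosomal protein genes were split by plate: 29 of 44 tested were called between replicates 3 and 4 and replicates 1 and 2, and 25 of these were higher in replicates 3 and 4. In E12.5 brain the ribosomal rows held 9.38% to 9.47% of the UMIs of replicates 3 and 4 and 6.66% to 6.84% of those of replicates 1 and 2.

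Several other lists were called mostly against some of the groups. Over all tested genes 8.81% were higher and 7.04% lower than in yolk sac. These shares were 13.4% and 11.1% against E18.5 brain, and 20.7% and 17.8% against adult brain. All 8 tested interferon response genes were lower than in yolk sac, none was lower than in a later group by edgeR, at an unadjusted p below 0.05 or by DESeq2, and Ifi27l2a was higher than in both (166 ± 59.0 CPM in E12.5 brain, 1007 ± 431 in yolk sac, 44.1 ± 17.4 in E18.5 brain and 5.11 ± 5.90 CPM in adult brain). Of 8 tested genes of TGF-beta signalling, on which adult microglia depend, 5 were higher than in yolk sac, none was called against E18.5 brain by edgeR (1 was lower at an unadjusted p below 0.05, and 1 by DESeq2) and 7 were lower than in adult brain. Smad7, an inhibitor in this pathway, averaged 78.0 ± 16.7 CPM in E12.5 brain, against 7.04 ± 3.93, 94.0 ± 34.4 and 209 ± 19 CPM. Among 10 tested macrophage transcription factors, 4 were higher and 1 lower than in yolk sac, 3 were lower than in E18.5 brain and 6 lower than in adult brain. Maf was lower than in all 3 (134 ± 40.3 CPM in E12.5 brain and 265 ± 42.4, 212 ± 29.0 and 208 ± 59.5 CPM in the other groups), while Sfpi1, which encodes PU.1, did not pass in any comparison (868 ± 90.8 CPM and 879 ± 65.4, 720.1 ± 106 and 902 ± 99.2 CPM). In the list of phagocytic and disease-associated genes, 4 of 11 were higher and 2 lower than in yolk sac, 7 were lower than in E18.5 brain, and 4 were higher and 1 lower than in adult brain. Cd9, a tetraspanin, averaged 564 ± 237 CPM in E12.5 brain, 119 ± 46.5 in yolk sac, 1173 ± 322 in E18.5 brain and 313 ± 33.8 CPM in adult brain. Between plates, 5 of these 11 genes were called. Of 5 tested antigen presentation genes, H2-K1, a class I heavy chain, was set apart downward at 159.7 ± 26.9 CPM, against 228 ± 18.7, 253 ± 31.1 and 309 ± 47.3 CPM.

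Genes related to the proposed markers by family or function had patterns of their own in part. Crybb1, another beta crystallin, had its peak at E18.5, with 485 ± 162 CPM in E12.5 brain and 121 ± 26.4, 3101 ± 790.3 and 889 ± 130.5 CPM in yolk sac, E18.5 brain and adult brain. Serpine2, a protease inhibitor of another family than Spint1, averaged 797 ± 137 CPM in E12.5 brain, against 18.1 ± 18.9, 1658 ± 223 and 1161 ± 134 CPM. It was higher than in yolk sac and lower than in E18.5 brain. A list of serine proteases and of protease inhibitors held 5 tested genes, with Cst3 and Timp2 among them. Not all are of the serine type, as Cst3 inhibits cysteine proteases. Of the 5, 4 were higher than in yolk sac, and 1 was higher and 3 lower than in E18.5 brain. Against adult brain 1 was higher and 2 lower. Between plates 3 of the 5 were called, 2 of them higher in replicates 3 and 4. Igf2, the growth factor gene whose RNA the Igf2bp proteins bind, held 7 UMIs in all E12.5 brain cells. Of the other oncofetal and imprinted growth genes Hmga2, Mest, Peg3 and Trim71 were at 0 in E12.5 brain. H2-DMa, a class II chaperone chain, averaged 262 ± 23.4 CPM in E12.5 brain, against 31.6 ± 11.5, 180.2 ± 61.4 and 519 ± 114 CPM, and Cxcr2, a chemokine receptor, 40.6 ± 20.6 CPM, against 2.54 ± 3.15, 72.7 ± 21.3 and 6.10 ± 7.11 CPM. Among 5 tested chemokine genes, 1 was higher and 3 lower than in yolk sac, and 4 were lower than in E18.5 brain. Against adult brain 1 was higher and 2 lower. Over all tested genes 8.81% were higher and 7.04% lower than in yolk sac. These shares were 13.4% and 11.1% against E18.5 brain, and 20.7% and 17.8% against adult brain.

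A larger share of cells held at least 2 UMIs of cell-cycle genes in E12.5 brain than in any other group. Not every other limit kept this call. With each cell thinned to 300 UMIs, a cell was counted when at least 2 UMIs fell on 37 rows of S phase and G2/M genes. The share was 22.2%, 24.1%, 20.3% and 28.2% in the E12.5 brain libraries, against 14.7% to 19.8% in yolk sac, 9.55% to 18.8% at E18.5 and 0.68% to 6.75% in adult brain. No library of another group reached the lowest E12.5 brain share, and the closest was a yolk sac library. The groups overlapped at other limits. With at least 1 UMI the lowest E12.5 brain share was 43.0% and the highest yolk sac share 43.8%, and with at least 3 UMIs the lowest E12.5 brain share was 8.72%, against highest shares of 10.1% in yolk sac and 11.3% at E18.5. Within the shared sequencing batch the shares were 20.3% and 28.2% in E12.5 brain and 19.8% and 14.7% in yolk sac. Means were 23.7% ± 3.35 in E12.5 brain and 17.4% ± 2.08, 14.9% ± 3.49 and 2.79% ± 2.70 in the other groups, which gives differences of 6.25, 8.81 and 20.9 percentage points. Two-sided exact permutation tests over libraries gave p = 0.0286, 0.00952 and 0.0286, all 0.0286 after adjustment over the 3 comparisons, and 0.0286 is the smallest p that 4 libraries against 4 can give. Without thinning the shares were 71.7%, 51.7%, 38.3% and 9.46%. Counting G2/M rows alone gave 11.8% ± 0.80 in E12.5 brain and 8.77% ± 2.73, 8.13% ± 1.76 and 0.92% ± 1.17 in the other groups, and S phase rows alone gave 7.67% ± 1.92 and 7.17% ± 1.72, 6.77% ± 2.19 and 1.26% ± 1.12. With at least 3 UMIs no comparison passed (adjusted p = 0.0857 for all 3, permutation test). At least 1 UMI and G2/M rows alone passed against E18.5 and adult brain. Against yolk sac they did not (adjusted p = 0.0857 and 0.114, permutation test). S phase rows alone passed in no comparison (adjusted p = 0.743, 0.743 and 0.0857, permutation test). Background RNA in wells can add single UMIs to such shares, and its part was not tested.

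Single genes of the cycle differed little from yolk sac. None of 10 tested S phase and 14 tested G2/M genes was called against yolk sac by edgeR. At an unadjusted p below 0.05, 1 and 2 were higher, and 0 of either by DESeq2. Median log2 fold changes against yolk sac were 0.13 and 0.43. Against E18.5 brain 4 of each were higher, and against adult brain 8 and 13. Over all tested genes 13.4% and 20.7% were higher in the latter comparisons. Birc5, which encodes survivin of the chromosomal passenger complex, averaged 157 ± 22.8 CPM in E12.5 brain, against 142 ± 54.3, 78.5 ± 29.7 and 2.75 ± 5.49 CPM. Cdca8, another subunit of that complex, averaged 198 ± 25.4 CPM, against 143 ± 38.9, 104 ± 29.7 and 5.11 ± 5.90 CPM. Mcm2, of the replicative helicase, averaged 143 ± 14.8 CPM, against 90.3 ± 24.2, 61.9 ± 37.4 and 19.2 ± 10.0 CPM.

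**Figure D3:**
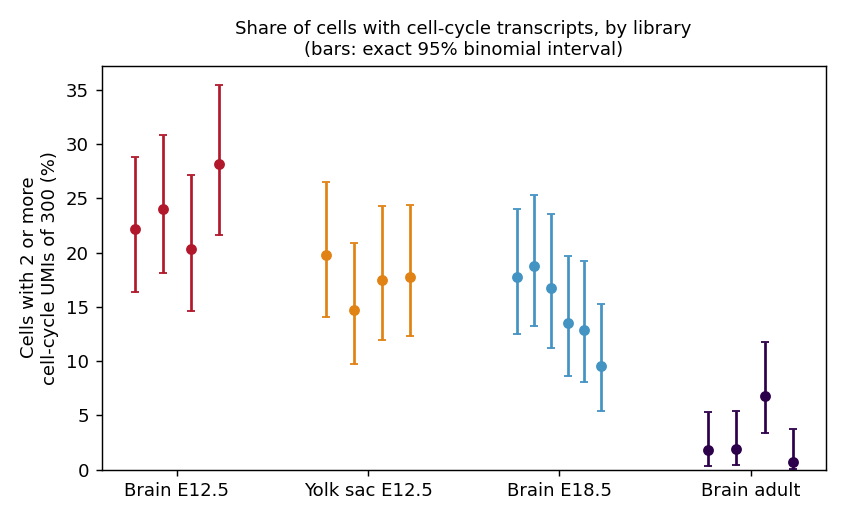
Percentage of cells, each thinned to 300 UMIs, with at least 2 UMIs of cell-cycle genes in each library of E12.5 brain, yolk sac, E18.5 brain and adult brain, with exact 95% binomial intervals that cover counting error only. The 4 E12.5 brain libraries lie between 20.3% and 28.2%, above all others, and their intervals overlap with those of yolk sac.

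Within E12.5 brain, variation from cell to cell was described in 556 cells thinned to 1000 UMIs, with 162 shallower cells left out and no test. For each gene the variance over the mean of its UMIs per cell was averaged over the 4 libraries, a ratio that is near 1 for counting noise alone. Over the 2019 genes with at least 0.1 UMI per cell the median ratio was 1.13, and 21 genes (1.04%) reached 1.5 in each library. Apoe had the highest ratio, with 8.01, 5.90, 9.38 and 6.69 in replicates 1 to 4. At an equal relative spread this ratio rises with the mean, so the order of genes follows abundance in part. Apoe averaged 17.6 UMIs per cell, against 0.19 for Id2 and 0.14 for Cd74, and relative spread was not ranked. A cell at the 10th percentile held 5, 6, 2 and 4 Apoe UMIs of 1000 in these libraries, the median cell 14.5, 15, 16 and 15.5, and a cell at the 90th percentile 34, 31, 37 and 31. Nearly every cell held some Apoe (at least 96.4% of cells in each library), so the spread is one of amount. Ctsd (mean ratio 3.56), Ftl1 (3.04), Cst3 (2.48), C1qa (2.34), C1qc (1.97) and Lgmn (1.81) also varied while being found in most cells.

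Other variable genes were confined to part of the cells. Id2, an inhibitor of basic helix-loop-helix factors, was found in 6.29% to 11.3% of cells with up to 10 UMIs in a cell (mean ratio 3.41), and Cd74, the invariant chain of class II presentation, in 4.57% to 10.8% (2.66). The metallothionein genes Mt1 and Mt2 had ratios of 3.02 and 2.91. They are close paralogs, and Mt1 was found in 41.4% to 57.5% of cells. Hist1h1b, a linker histone made in S phase, was found in 7.43% to 20.8% of cells (1.96). Malat1, a nuclear long RNA, Ctss, cathepsin S, and Ly6e varied too (2.98, 2.30 and 2.09), but these were also lower in replicates 3 and 4 by 1.64, 1.51 and 1.42 on the log2 scale. Of the genes that set E12.5 brain apart upward, Cd52 (2.22) and Lsp1 (1.66) were among the 21, and Fcrls (1.86), Sparc (2.10), Tmem176b (1.82) and Apoc1 (2.59) completed the list.

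**Figure D4:**
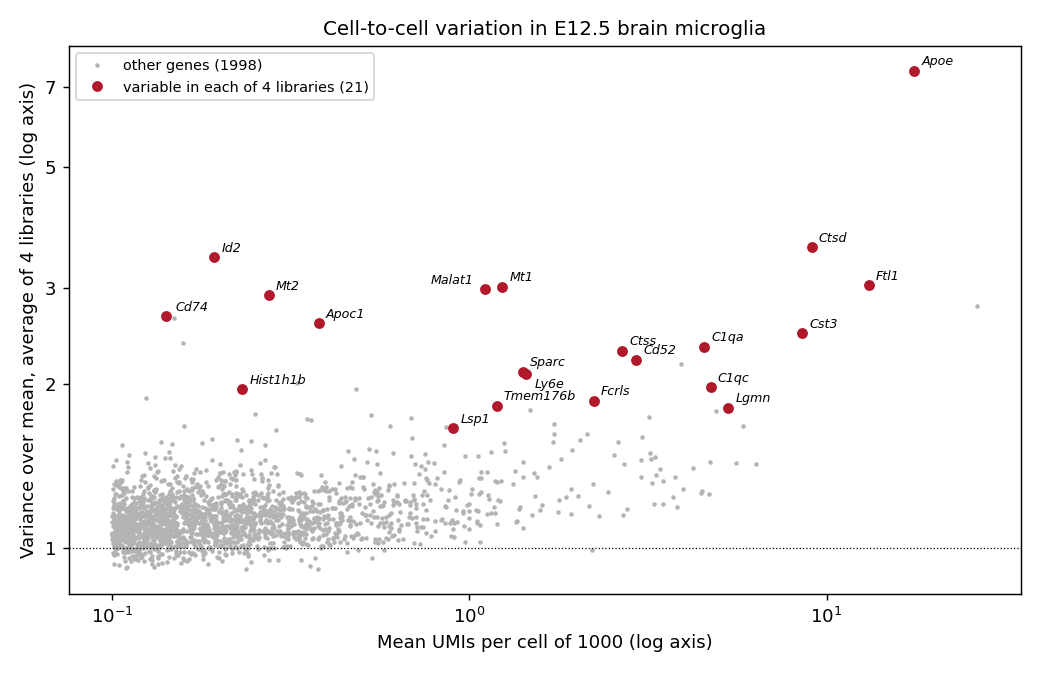
Variance over mean of the UMIs per cell (average of 4 libraries, log axis) against the mean UMIs per cell of 1000 (log axis) for 2019 genes of E12.5 brain cells, with the 21 genes at a ratio of at least 1.5 in each library in red and the other 1998 in grey. Most genes lie near the dotted line at 1, and Apoe stands highest at 7.50.

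The variable genes fell into groups that went together within cells. Pearson's r of log2(UMIs + 1) over the cells of a library, averaged over the 4 libraries and given without a test, joined Apoe, C1qa, C1qc, Ctsd, Lgmn, Ftl1 and Fcrls. Apoe and C1qa had r = 0.471 (0.302 in the lowest library), and Lgmn and Ctsd 0.456. A second group joined Id2, Cd74 and Lsp1, with r = 0.420 between Id2 and Cd74. Between the groups r was negative, at −0.473 for Ftl1 and Id2, −0.409 for Apoe and Id2 and −0.390 for C1qa and Id2. Mt1 and Mt2 (0.339), Cst3 and Sparc (0.325) and Cd52 and Tmem176b (0.233) paired. All values in a cell share its fixed total of 1000 UMIs, so a high share of one gene lowers the others, and Apoe and C1qa had mean r of −0.264 and −0.317 with the depth of a cell before thinning. Summed lists gave r = 0.649 between phagocytic and complement genes (0.497 to 0.833 over libraries) and −0.204 between G2/M and homeostatic genes (−0.289 to −0.138). The phagocytic sum averaged 28130 CPM, of which Apoe held 17160 and Ctsd 8958 CPM. The complement sum averaged 15210 CPM, with C1qb at 5792, C1qc at 4551 and C1qa at 4451 CPM. The r between these 2 sums therefore follows mainly these few genes and not the whole lists.

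**Figure D5:**
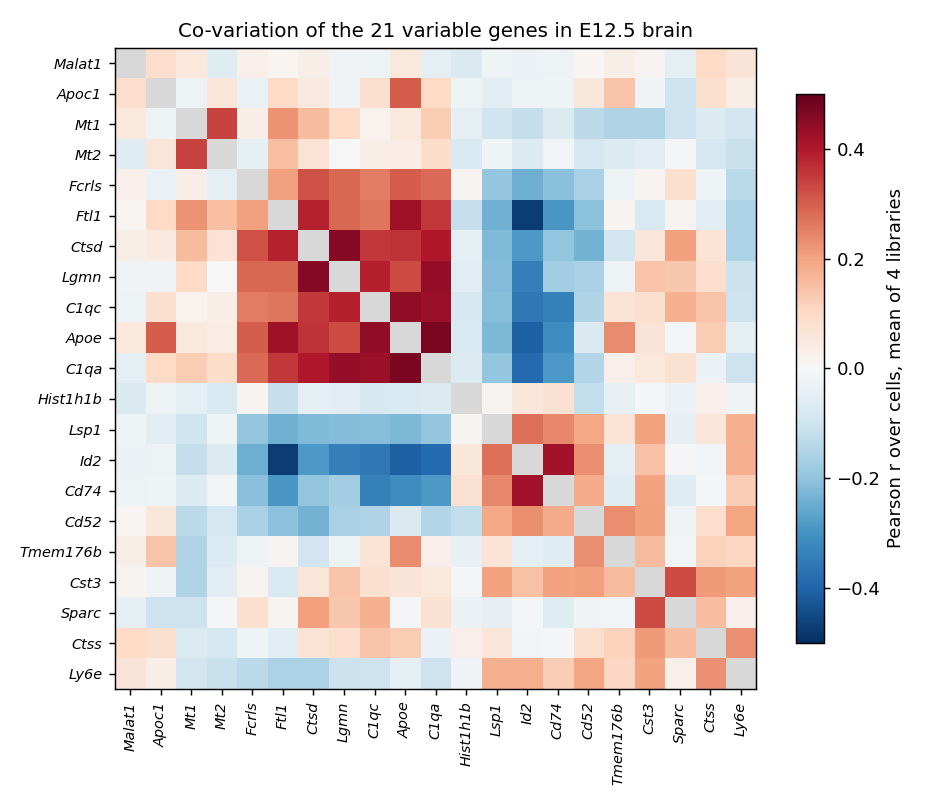
Pearson's r over cells, averaged over the 4 E12.5 brain libraries, for each pair of the 21 variable genes, from −0.5 (blue) to 0.5 (red), with the diagonal in grey. The red block joins Fcrls, Ftl1, Ctsd, Lgmn, C1qc, Apoe and C1qa, and the blue cells set these against Lsp1, Id2 and Cd74.

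The Id2 and Cd74 pattern came from few cells in every library. At least 3 UMIs of Id2 and Cd74 together, a limit chosen after the variable genes were seen, were held by 20 of 556 cells (3.60%), 5, 4, 7 and 4 in replicates 1 to 4. These cells held 2.75 Apoe UMIs of 1000 on average, against 18.1 in the other 536 cells, and 0.25 C1qa UMIs against 4.59, 0.20 Fcrls UMIs against 2.28 and 1.95 Csf1r UMIs against 5.02. Actb (27.3 against 26.7) and Tyrobp, an adaptor of myeloid receptors (3.35 against 3.28), were close to the other cells. Timp2, Serpine2, Rab3il1 and Tmem86a had 0 UMIs in these 20 cells. Apart from Id2 and Cd74, the genes with the largest ratio to the other cells were H2-Aa, a class II chain (16 UMIs in 6 cells), Flt3, a receptor tyrosine kinase of early blood progenitors and dendritic cells (14 UMIs in 10 cells), Cd7, Plbd1 and Napsa. Of the thinned UMIs of genes described above, these cells held 18.2% for Tnni2, 16.0% for Gsn, 13.1% for Klk8, 12.5% for Lsp1 and 8.35% for Cd52, but 1.53% for Nes, 0.27% for Cryba4 and 1.37% for Cyp4f18.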

How the data were processed

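Counts were whole-number UMI counts per gene row and well, made and deposited by the authors with MARS-seq; reads were demultiplexed with bcl2fastq 2.15.0.4 and the genome build was mm9, per the submitters' processing notes, while no label or header names the aligner or the annotation. The deposited table held 27297 gene rows, of which 2109 joined several symbols; these rows could not be split. Wells were tied to libraries through the deposited well table, whose Experiment ID and amplification batch match the labels. A well with 1 cell and at least 300 UMIs was kept as a cell, no doublet caller was run, and the counts of the cells of a library were summed. UMIs were counted, so PCR copies do not add to a value.

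Library totals in E12.5 brain were 228467 to 534219 UMIs, against 269698 to 309084 UMIs for yolk sac, 143876 to 217647 UMIs for E18.5 brain and 74562 to 99494 UMIs for adult brain; low genes are least precise in adult brain, where 3 counts over the group equal 8.30 CPM. Genes were tested with edgeR 4.0.16 in R 4.3.3 (TMM scaling, filterByExpr, robust quasi-likelihood fit over all 18 libraries, Benjamini-Hochberg adjustment, threshold 0.05), which was checked on simulated counts. Shares of cells were compared by exact permutation over libraries. Cells were thinned to 300 UMIs to compare groups and to 1000 UMIs for variation. DESeq2 1.42.0, other scalings and filters, left-out replicates and plates, and batch terms served as alternatives. Tables and thinning used Python 3.11.15 with numpy 2.4.6, pandas 2.3.3 and scipy 1.17.1.

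Named genes were, of rows with 1 symbol, the 20 most abundant, 15 set apart upward and 10 set apart downward with the largest smallest change, no overlap of libraries and a mean of at least 50 CPM (in E12.5 brain for upward genes, in each other group for downward genes), the 20 most variable, 6 proposed markers, 3 genes of the sort, and called and uncalled members of lists; some of these genes are not reported here. The members and lists were chosen with earlier results of these data known. Intervals of shares are exact 95% binomial intervals and cover counting error only.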

Additional observations from a re-analysis of the deposited data

Results flagged for a closer look

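Of 68 values with a set of 4 E12.5 brain libraries that were looked at, 4 had a single library far from the other 3. Cd14, the lipopolysaccharide co-receptor, had 65.7 CPM in replicate 4, below the 85.7 to 88.0 CPM of the others, and its fall relative to all 3 groups does not depend on that library. Ccl6 had 219 CPM in replicate 4, above 171 to 178 CPM in the others. Gsn had 261 CPM in replicate 1, above 215 to 223 CPM, and Mt1, a metallothionein, had 1611 CPM in replicate 4, above 1086 to 1153 CPM. Chance alone sets apart about 1 in 20 such sets.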

How the results depend on the processing

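No paired analysis was possible because the labels carry no replicate numbers and the numbers used here only follow accession order. Counts below are of genes called in E12.5 brain. The number of tested genes differed between alternatives, so these counts cannot be compared directly with each other. It was 4883 in the main fit and with batch as a covariate, 6902 with counts summed per plate and 2357 with thinned libraries. It was 5427 without the plate of replicates 3 and 4, and DESeq2 was given 14073 genes. With counts summed per plate, 261 were higher than in yolk sac, 308 higher and 352 lower than in E18.5 brain, and 14 set apart upward and 19 downward. With sequencing batch as a covariate, 274 were higher than in yolk sac, 184 higher and 148 lower than in E18.5 brain, 554 higher and 356 lower than in adult brain, and 26 set apart upward and 14 downward. With libraries thinned to 1 total, 210 were higher and 174 lower than in yolk sac, 299 higher and 352 lower than in E18.5 brain, 535 higher and 570 lower than in adult brain, and 23 set apart upward. DESeq2 set 29 apart upward. A log2 limit of 1 left 242 higher and 329 lower than in E18.5 brain, and 11 set apart upward and 25 downward. Without the plate of replicates 3 and 4, chosen after seeing the data, 282 were higher and 360 lower than in E18.5 brain and 22 set apart upward. Leaving out each replicate gave 29 to 44 genes set apart upward and 29 to 44 downward, and 25 to 28 variable genes.

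In cells holding cell-cycle transcripts the share differed by 7.57 percentage points from yolk sac with at least 1 UMI. With at least 3 UMIs it was 3.16 against yolk sac, 2.72 against E18.5 brain and 11.4 against adult brain. S phase genes alone gave 0.502, 0.898 and 6.41, and G2/M genes alone 3.06 against yolk sac. None of the differences listed so far passed after adjustment (permutation test). Leaving out each replicate gave 4.76 to 7.37 against yolk sac, 7.32 to 9.93 against E18.5 brain and 19.4 to 22.2 against adult brain, and 3 libraries against 4 cannot reach 0.05. Thinning to 500 UMIs, or a ratio of at least 2, left 6 variable genes. At 500 UMIs the means per cell are lower, so the same ratio asks for a larger relative spread. Among named genes over all alternatives, 4 values changed sign. These were Mtap1b at −3.18 against E18.5 brain and −0.59 against adult brain and Cx3cr1 at 0.0084 against E18.5 brain with batch as a covariate, and Cfl1 at −0.038 against E18.5 brain without the plate of replicates 3 and 4. Another 219 lost and 47 gained a call, and 5335 kept both direction and call; the causes were not tested. Over the 14073 genes with no filter the median log2 fold change was −0.12 against E18.5 and adult brain by DESeq2 and 0.23 against adult brain by edgeR. Depth limits the low genes most, above all in adult brain.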
